A study of Mus musculus with 6 samples.

Results

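An antisense transcript is made from the DNA strand opposite to that of a protein-coding gene, the sense gene. The transcripts described here are the autosomal genes that the deposited tables class as antisense and that had a mean of at least 1 FPKM (fragments counted on a gene, divided by its length and by the library's total) over 5 RNA-sequencing libraries of macrophages. They number 97, of 2780 autosomal antisense genes and 54532 genes in all, and 1264 of the 2780 had any read. They were chosen by that mean level over both groups, so the level is given as a description only. The 3 just past the minimum were 9330179D12Rik, Gm47071 and Gm17111 at means of 1.01, 1.02 and 1.08 FPKM, and the 3 just short of it were 0610039K10Rik, Gm16754 and Gm31597 at 0.999, 0.993 and 0.987 FPKM. A further 3 antisense genes off the autosomes passed the same mean and were left out.

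The cells were macrophages grown from the bone marrow of C57BL/6 mice. In one group, siCXCR4, a small interfering RNA (siRNA) had been introduced against Cxcr4, the receptor for the chemokine CXCL12, and in the other, siNC, a negative-control siRNA. Both groups had then received lipopolysaccharide, a bacterial cell-wall component sensed by TLR4, at 100 ng/ml for 12 hours, so no group shows the unstimulated state. The labels give no age and no untransfected cells, and do not say if each replicate was its own animal or culture, so every p-value covers just the spread among these samples and may be technical. In the deposited headers the siNC columns start with wt and the siCXCR4 columns with mko, an abbreviation that nothing here explains. Of 3 samples per group, siNC replicate 3 held whole read counts identical to those of siNC replicate 2 for each of the 19072 genes detected. The 2 samples differed in 0 of 54532 genes, so they were counted as 1 sample. The comparison therefore rests on 2 siNC and 3 siCXCR4 libraries.

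The libraries held between 18890751 and 21780840 reads in genes. Cxcr4 itself stood at 41.3 and 42.1 FPKM in the siNC libraries and at 31.1, 36.2 and 32.7 in the siCXCR4 libraries. The groups did not overlap, with a log2 difference of -0.32 (SE 0.0704, adjusted p = 0.457 by limma and 0.0637 by edgeR, exact two-sided permutation p = 0.1, the smallest that 2 against 3 libraries allow). The siRNA target was thus lower in every siCXCR4 library but did not pass the adjusted threshold, which by edgeR it did without siCXCR4 replicate 2 (adjusted p = 0.00104). All 8 macrophage markers looked for were present, at a summed 4287 to 4525 FPKM in siNC and 4149 to 4513 in siCXCR4. Neutrophil markers summed to 105 to 109 FPKM in siNC and to 84.2 to 99.5 in siCXCR4. By limma 2 of 5 tested markers were lower at an unadjusted p under 0.05, beside 3.54% of all genes. Their part in the results was not tested, and in bulk RNA fewer cells of a type and less RNA per cell cannot be told apart. Markers of dendritic cells, T cells, B cells, mast cells, erythroid cells and fibroblasts each summed to at most 1.78 FPKM in a library, with Hbb-bt, a beta-globin gene, at 0 reads.

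As background, antisense RNAs can act on their sense gene in several ways: the passage of RNA polymerase can interfere with transcription of the opposite strand, the RNA can recruit chromatin regulators, or it can pair with the sense RNA. Airn, which is read through the imprinted Igf2r gene and silences it in cis on the paternal chromosome, is the textbook example. Many antisense RNAs are scarce, stay in the nucleus and are degraded there by the RNA exosome, and many have no known function.

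A protein-coding gene on the other strand overlapped 86 of the 97 transcripts, and 11 had more than 1 such gene, of which the one sharing most bases was taken as the main sense partner. The 86 had 85 distinct main partners, since Gm28913 and Gm28914 both lie inside Ikbke. In 49 pairs the antisense gene lay wholly within the span of the sense gene, 23 pairs were head to head with overlapping starts, 13 were tail to tail with overlapping ends, and in 1 pair, Brip1os and Ints2, the sense gene lay within the antisense gene. The remaining 11 had no overlapping protein-coding gene on the other strand, so that the class label was not borne out by the positions of these genes. Several of the 11 began beside one: BC051226 started 97 bases from Daxx, a histone chaperone gene, Map2k3os 166 bases from Map2k3, a MAP kinase kinase, and Gm47735 11 bases from Pcgf5, a Polycomb gene. Most were unnamed loci, with 64 Gm symbols, 17 Riken symbols and 11 symbols marked os, for opposite strand (10 ending in os, and Plxna4os1). The median exon length was 854 bases, and 5 had a single exon.

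How the antisense RNA lies across its sense gene differs between pairs, and 3 stretches give examples with no, some and many coding bases opposite. All are printed 5′ to 3′ as spliced DNA letters from the GENCODE M21 transcripts (build GRCm38), with capitals for bases opposite coding exon sequence of the sense partner; positions include introns. Gm16015, the transcript with the lowest p between the groups, shared no base with an exon of Cd38 and is shown by bases 1 to 300 of its 390, from chr5:43909305-43909885 on the minus strand. Adap2os, in Adap2, shared 146 bases with coding exons there, and is shown by bases 202 to 501 of 984, chr11:80177046-80177428, minus strand. Gm15265, in Pi4kb, shared 407 bases with coding exons, and is shown by bases 498 to 797 of 814, chr3:94998851-95004372, minus strand.
Gm16015: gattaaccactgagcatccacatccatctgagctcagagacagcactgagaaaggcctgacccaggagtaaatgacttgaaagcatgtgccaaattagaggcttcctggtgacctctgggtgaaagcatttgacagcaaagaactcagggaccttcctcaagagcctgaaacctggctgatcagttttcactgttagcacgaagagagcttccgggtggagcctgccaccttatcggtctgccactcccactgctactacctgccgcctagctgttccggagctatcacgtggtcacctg
Adap2os: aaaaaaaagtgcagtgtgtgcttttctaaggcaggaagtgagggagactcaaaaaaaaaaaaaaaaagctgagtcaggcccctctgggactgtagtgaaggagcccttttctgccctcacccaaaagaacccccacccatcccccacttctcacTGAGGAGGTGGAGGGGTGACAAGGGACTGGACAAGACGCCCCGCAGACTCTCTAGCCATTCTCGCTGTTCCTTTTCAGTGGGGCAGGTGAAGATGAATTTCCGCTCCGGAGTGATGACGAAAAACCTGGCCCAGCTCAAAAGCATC
Gm15265: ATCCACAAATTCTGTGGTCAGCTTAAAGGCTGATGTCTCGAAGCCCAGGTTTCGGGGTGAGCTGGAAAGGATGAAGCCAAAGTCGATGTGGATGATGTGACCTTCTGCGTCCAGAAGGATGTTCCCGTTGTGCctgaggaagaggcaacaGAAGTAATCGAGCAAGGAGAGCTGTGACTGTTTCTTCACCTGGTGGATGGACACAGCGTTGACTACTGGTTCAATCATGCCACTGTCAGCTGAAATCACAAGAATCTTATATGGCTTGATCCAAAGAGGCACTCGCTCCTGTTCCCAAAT
The Gm16015 stretch has 0 capital letters, the Adap2os stretch 146 and the Gm15265 stretch 283. Over all members, 57 shared at least 1 exon base with the main partner, 60 with any gene on the other strand and 37 with none, and only 4 shared at least 50% of their exon bases.

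Read counts moved with the sharing of exons across all genes of the tables. Of 491 genes in the tables whose exons lay wholly inside exons on the other strand, 489 had 0 reads in every library, among them 38 of 38 protein-coding genes and 73 of 74 antisense genes. Genes wholly inside exons on the same strand showed much the same, with 717 of 741 at 0 reads. Of genes sharing no exon base with another gene, 62.4% had 0 reads (36.7% of the protein-coding ones). Antisense genes opposite a sense gene of at least 10 FPKM had a median of 0.125 FPKM where they shared no exon base with it (119 genes) and 0.242 where they shared up to 25% (145 genes). The median was 0.0763 FPKM at 25 to 75% (76 genes), 0.0121 at 75 to under 100% (22 genes) and 0 where the whole exon was shared (18 of 18 at 0 reads). No expressed member came from the last 2 classes. No source used here gives the strand setting of the counting, and its part in these shares was not tested. A read in an unshared exon inside an intron of the sense gene could come from either strand, and reads of the antisense transcript and of unspliced sense RNA cannot be told apart in these tables. Where a level or difference of a strand is given below, it is thus that of the gene annotated there, not of reads known to be from that strand. Rescaling each member to exon bases shared with no other gene changed little: 36 members were wholly unshared, 4 had under 50% unshared (Gm37787, Gm29585, Gm17201 and Gm12764), the largest rescaling was 3.61-fold, and 20 rather than 19 members stood above their partner.

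**Figure D1:**
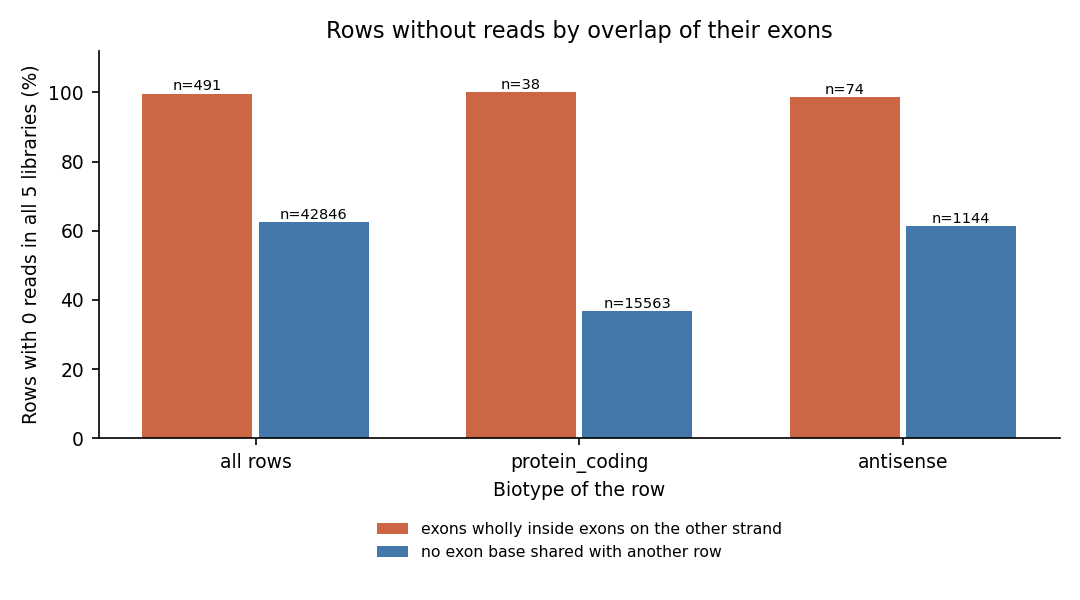
Share of genes with 0 reads in all 5 libraries (vertical axis, percent) for all genes, protein-coding genes and antisense genes (horizontal axis), split into those whose exons lie wholly inside exons on the other strand and those sharing no exon base with another gene; n is the number of genes. Genes wholly inside exons on the other strand stand at 98.6% or more, and genes sharing no exon base between 36.7% and 62.4%.

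The antisense transcripts were scarce. Their median level was 1.70 FPKM, 57 of the 97 stood under 2 FPKM, 18 reached 5 and 8 reached 10, and together they took 0.0621 to 0.0671% of the reads in genes of a library. Of all autosomal antisense genes 3.49% passed the mean of 1 FPKM, beside 2.20% of lincRNA genes (108 of 4915) and 41.7% of protein-coding genes (8688 of 20825). Their reads per library ran from 4 to 2519, and 18 members had fewer than 10 reads in at least 1 library. Sums of their FPKM were 413 and 439 in siNC and 408, 399.5 and 399.2 in siCXCR4, hence lower in every siCXCR4 library. Without the most abundant member they were 319 and 338 against 307, 311 and 311, lower as well. The shares of reads without it overlapped, at 0.05307 and 0.05546% in siNC and 0.05203, 0.05206 and 0.05310% in siCXCR4.

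The most abundant member, 4930430E12Rik (chromosome 4, 6352105 to 6357530, GRCm38), had 93.6 and 100.4 FPKM in siNC and 102, 88.3 and 87.8 in siCXCR4. It overlapped no protein-coding gene on the other strand, and the start of the nearest one, Sdcbp, which encodes the adaptor protein syntenin, was 8120 bases away. The groups overlapped, and the log2 difference was -0.07 (SE 0.0790, adjusted p = 0.804 by limma).

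Next came A530040E14Rik, with 17.1 and 22.1 FPKM in siNC and 25.5, 20.5 and 23.8 in siCXCR4. It lay within C130026I21Rik, which had a mean of only 3.57 FPKM, and overlapped A530032D15Rik as well. The siNC and siCXCR4 values overlapped for A530040E14Rik and for C130026I21Rik. This stretch of chromosome 1 holds close gene copies, so how reads were divided among them is uncertain.

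Gm16685 began inside Il7, the gene of the lymphocyte cytokine interleukin-7, in a head-to-head pair, and stood at 16.1 and 13.0 FPKM in siNC and 15.2, 15.4 and 12.8 in siCXCR4. Il7 itself stood at 0.512 and 0.493 FPKM in siNC and 0.608, 0.474 and 0.535 in siCXCR4. The antisense RNA was thus 27.7 times as abundant as its sense gene per length, with overlapping groups on both strands.

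Inside Ikbke, Slamf7 and Adap2 the order was the reverse. Gm28913 lay in Ikbke, a kinase upstream of interferon genes, and had 12.7 and 17.7 FPKM in siNC against 11.1, 9.07 and 15.1 in siCXCR4, beside a mean of 40.4 for Ikbke. Gm37787 lay in Slamf7, a cell-surface receptor of the SLAM family, and had 9.14 and 10.1 FPKM against 10.1, 11.5 and 8.92, beside a mean of 313 for Slamf7. Adap2os lay in Adap2, an Arf GTPase-activating protein, and had 9.54 and 10.8 FPKM against 11.1, 10.2 and 9.98, beside a mean of 84.1 for Adap2. For each of these 3 antisense transcripts the siNC and siCXCR4 values overlapped.

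Gm17201, in Ankrd52, which encodes a regulatory subunit of protein phosphatase 6, had means of 12.8 ± 1.76 (SD, n = 2) and 13.5 ± 1.93 FPKM (SD, n = 3) beside 11.4 and 10.7 for Ankrd52. It was thus 1.21 times as high as its partner over both groups, and 2.84 times per exon base shared with no other gene (158 bases). Gm13012 lay in Ece1, the endothelin-converting enzyme, and had 13.7 and 13.2 FPKM in siNC and 11.3, 11.2 and 8.23 in siCXCR4. Every siCXCR4 library of Gm13012 lay below both siNC libraries (log2 -0.37, SE 0.134, unadjusted p = 0.0318, adjusted p = 0.512 by limma), while Ece1 overlapped at 18.1 and 18.2 FPKM. Brip1os spanned all of Ints2, a subunit of the Integrator complex, and had 10.5 and 10.5 FPKM in siNC and 11.3, 10.9 and 10.7 in siCXCR4, which did not overlap but differed by only 0.05 on the log2 scale (SE 0.0512, adjusted p = 0.752). It also overlapped Med13, a Mediator subunit gene with a mean of 16.7 FPKM. Ints2 stood at 0.966 and 1.01 FPKM in siNC and 0.753, 0.914 and 0.910 in siCXCR4, lower in each siCXCR4 library.

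**Figure D2:**
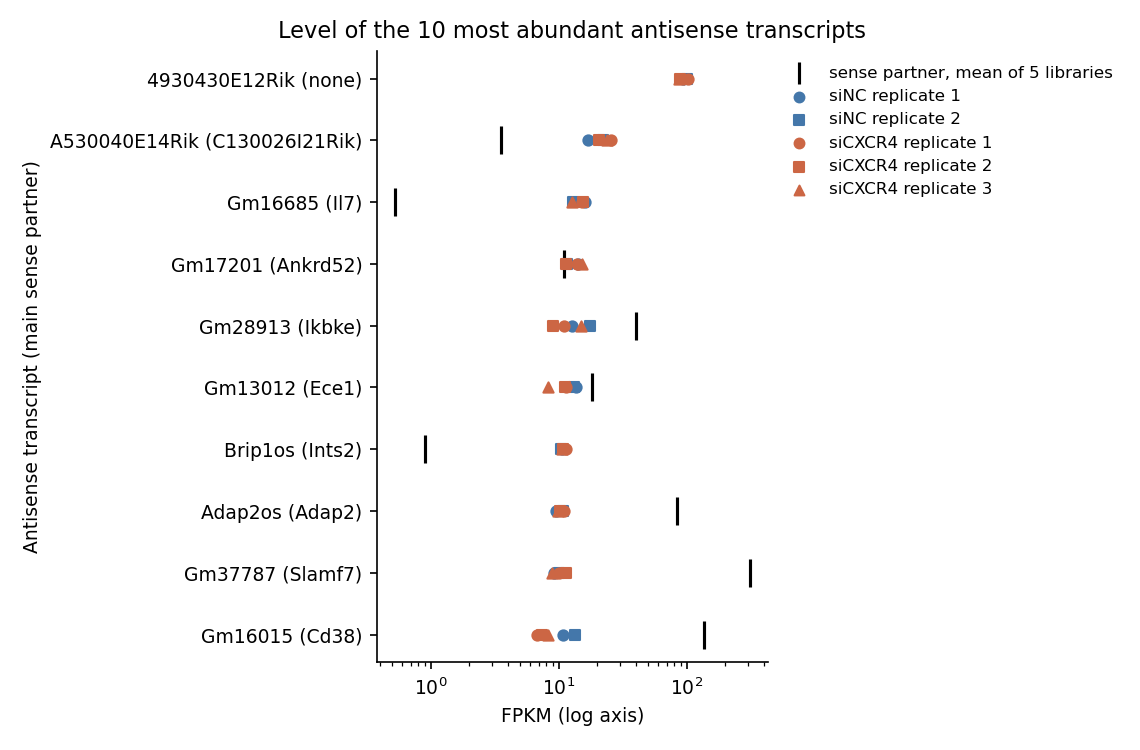
FPKM (log axis) of the 10 most abundant antisense transcripts in each library, coloured by group, with a bar for the mean of the main sense partner named in brackets. 4930430E12Rik stands near 100.4 FPKM and the others between 6.83 and 25.5; Gm16685 lies far above Il7, and Gm37787 far below Slamf7.

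Over all 86 pairs the antisense gene had the lower mean FPKM in 67 and the higher in 19. The strand setting is not given, so these levels may hold reads from either strand. Its median level was 16.1% of that of the partner, and in 28 pairs the partner was at least 10 times as high. The sense gene was most abundant opposite Gm20234, where Slfn2, a Schlafen-family gene, had a mean of 879.9 FPKM and the antisense transcript 4.39. Across the 86 pairs, log2 levels of the strands were weakly related (Pearson r = 0.21, Spearman rho = 0.20), as a description of pairs that share libraries, exon bases and depth. The antisense level was itself cut at a mean of 1 FPKM and the partner level was not. That cut narrows the antisense range, so the strength of the relation cannot be judged from these pairs. By arrangement, 12 of 49 nested transcripts, 5 of 23 head-to-head ones and 1 of 13 tail-to-tail ones stood above the partner, as did Brip1os.

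The 6 transcripts with the highest ratio to their sense partner had main partners with means of 0.524 FPKM or less. Gm16685 and Il7 were one such pair. Opposite Kremen2, a receptor for the Wnt inhibitor Dickkopf, 9530082P21Rik had 4.18 and 4.15 FPKM in siNC and 3.75, 3.85 and 3.96 in siCXCR4, lower in every siCXCR4 library but by only 0.09 on the log2 scale (log2 -0.09, adjusted p = 0.651 by limma). Kremen2 had 1 read in 1 library and none in the other 4, so no ratio is given. 9530082P21Rik shared 200 exon bases with Kremen2 and 1071 with other genes on that strand only, where it also overlapped Flywch1, with a mean of 5.95 FPKM. Plxna4os1 stood at 1.35 to 2.38 FPKM inside Plxna4, a semaphorin receptor with a mean of 0.0574 FPKM, and Gm20658 at 0.962 to 1.92 inside Vipr2, a receptor for vasoactive intestinal peptide, with 0.0785. Gm14199 stood at 1.02 to 1.76 FPKM inside Ttll9, a tubulin tyrosine ligase-like gene with 0.0416, and Erich2os at 1.12 to 1.89 across the start of Erich2, with 0.0572. In these last 4 pairs the groups of the antisense transcript overlapped, and Vipr2, Ttll9 and Erich2 rested on 1 to 13 reads per library.

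**Figure D3:**
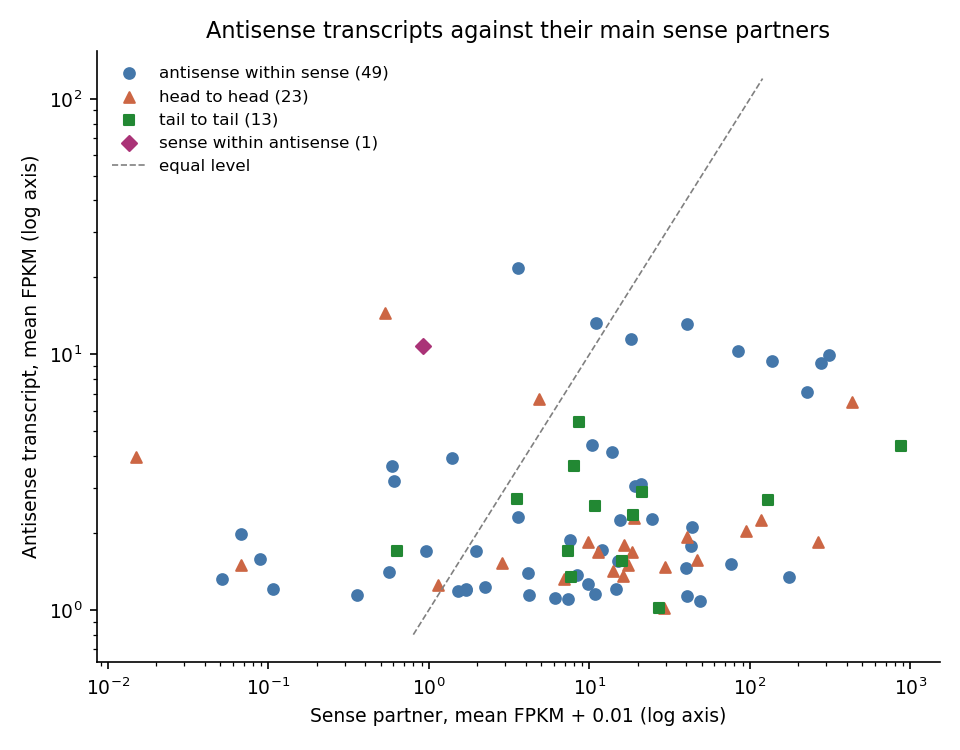
Mean FPKM of each of 86 antisense transcripts (vertical log axis) against its main sense partner (horizontal log axis, 0.01 added), by arrangement; the dashed line marks equal levels. Most points, 67 of 86, lie to the right of the line, and partner means run from 0.00486 to 879.9 FPKM while all but 7 of the antisense transcripts with a partner lie under 10 FPKM.

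Among transcripts named for an opposite strand, those not yet described stood between 0.784 and 3.21 FPKM. Zeb2os, in the gene of the transcriptional repressor Zeb2, had 3.07 and 3.21 FPKM in siNC and 3.21, 3.08 and 2.99 in siCXCR4, beside 20.7 and 20.9 FPKM for Zeb2. Rab10os, tail to tail with the vesicle-traffic GTPase gene Rab10, had 2.83 and 2.77 FPKM against 2.72, 2.75 and 2.40, a difference of -0.07 on the log2 scale (adjusted p = 0.774 by limma) with groups that did not overlap. Peak1os ranged from 1.20 to 1.80 FPKM, Map2k3os from 0.878 to 1.58 and Slc36a3os from 0.784 to 1.95, each with overlapping groups. Slc36a3os stood above Slc36a3, a solute carrier gene with a mean of 0.345 FPKM. Airn, named for its known role and not by the rule, had 1.89 and 2.19 FPKM in siNC and 1.40, 1.61 and 1.92 in siCXCR4, beside 16.8 and 16.3 FPKM for Igf2r, the receptor that clears insulin-like growth factor 2. Both overlapped between the groups.

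For siCXCR4 against siNC, no antisense transcript differed at an adjusted p under 0.05: limma called 0 of 97, edgeR 0 of 95 and DESeq2 0 of 97, and the smallest adjusted p by limma was 0.389. Among all genes the percentages called by these tools were 0.0, 0.133 and 0.12. Leaving out siCXCR4 replicate 2, edgeR called 1 member, 1700071M16Rik in Pla2g7, which had 9.59 and 10.8 FPKM in siNC and 7.28, 9.68 and 8.78 in siCXCR4, with the siCXCR4 replicate 2 value inside the siNC range. Without adjustment, limma gave 14 members with p under 0.05 (14.4%, beside 9.34% of all genes), 3 being higher and 11 being lower in siCXCR4. That is 3.09% higher and 11.3% lower, beside 5.8% and 3.54% of the 9943 genes tested. By edgeR 12 members (2 higher, 10 lower) were under that p, which is 12.6%, beside 9.73% of all genes (4.46% higher, 5.27% lower). By DESeq2 4 members (1 higher, 3 lower) were, which is 4.12%, beside 2.97% of all genes (1.62% higher, 1.36% lower). The gene sets differ: edgeR tested 12794 genes and DESeq2 23311, the latter without the minimum of 1 FPKM that all members pass. The DESeq2 share of all genes is thus not a like comparison. Among 14612 autosomal protein-coding genes it was 4.19% (2.40% higher, 1.79% lower), likewise without that minimum. Members below 0 numbered 57 of 97, with a median log2 difference of -0.03, while 43.6% of all genes were below 0 with a median of 0.01. By edgeR 57 of 95 members and 51.9% of all genes were below 0. Groups did not overlap in 10 members that were higher and 15 that were lower in siCXCR4. That is 10.3% and 15.5%, beside 17.9% and 9.92% of all genes (27.8% in either direction). Expressed lincRNA genes, another class of long noncoding RNA, numbered 108, of which limma put 0 higher and 14 lower (13.0%) at that unadjusted p. Without the minimum of 1 FPKM, edgeR put 0 of 256 lincRNA genes higher and 18 lower (7.03%), beside 4.46% and 5.27% of all genes. DESeq2 put 0 of 1298 higher and 7 lower (0.539%), beside 1.62% and 1.36%. At an adjusted p under 0.05 edgeR and DESeq2 each called 1 lincRNA gene. Smaller classes past the same mean, such as processed transcripts (42 genes), were not compared. The difference between antisense or lincRNA genes and the other genes was not tested.

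Exon overlap and depth split the members further, as a description with no test. Of the 37 members sharing no exon base with the other strand, 27 were below 0 with a median of -0.07. Limma put 1 of the 37 higher and 7 lower at the same unadjusted p. That is 2.70% and 18.9%, beside 5.8% and 3.54% of all genes. Among the 50 members with at least 30 reads in every library, 0 were higher and 6 lower (12.0%) by limma. By edgeR 0 of these 50 were higher and 8 lower (16.0%), beside 4.46% and 5.27% of all genes by edgeR. The 95% interval around a log2 difference, taken gene by gene without adjustment, reached 0.31 to either side for the median member and 0.17 for the median gene. A difference under about that size was not detectable for a typical member at this depth. Larger differences could also miss the adjusted threshold, as Gm16015 did at -0.63 (adjusted p = 0.389 by limma).

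Gm16015 (chromosome 5, 43909215 to 43909885, minus strand) had the lowest p. It lay inside Cd38, the gene of a cell-surface enzyme that consumes NAD, with no exon base in common. It stood at 10.9 and 13.5 FPKM in siNC and at 6.83, 7.41 and 8.30 in siCXCR4, from 56 to 104 reads per library. All siCXCR4 values were below both siNC values, with a log2 difference of -0.63 (SE 0.108, unadjusted p = 0.000869, adjusted p = 0.389 by limma and 0.178 by edgeR). Cd38 stood at 144 and 146 FPKM in siNC and 129.7, 136 and 128 in siCXCR4. It was lower in every siCXCR4 library too, by a smaller log2 difference of -0.15 (SE 0.0518, adjusted p = 0.509). The antisense-to-sense log ratio differed by -0.49 (SE 0.149, exact permutation p = 0.1).

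Gm44199 lay inside Brk1, which encodes a subunit of the WAVE complex that nucleates actin, and had 2.15 and 2.06 FPKM in siNC and 0.870, 0.977 and 1.48 in siCXCR4. The groups did not overlap (log2 -0.57, SE 0.130, adjusted p = 0.457 by limma), on 14 to 35 reads per library. Brk1 overlapped, at 83.7 and 74.6 FPKM in siNC and 71.4, 82.3 and 67.1 in siCXCR4. Vasp, which promotes the growth of actin filaments, held 1700058P15Rik and stood at 217 to 233 FPKM with overlapping groups. The antisense transcript 1700058P15Rik had 8.34 and 8.97 FPKM in siNC and 7.0, 6.25 and 4.93 in siCXCR4, each siCXCR4 library being below both siNC libraries (log2 -0.46, SE 0.127, adjusted p = 0.488).

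The other 5 of the 8 lower members of lowest p showed the same separation, which choosing by lowest p favours. Tail to tail with Zfp384, a zinc finger gene, 4930557K07Rik had 3.12 and 3.49 FPKM in siNC and 2.15, 2.42 and 1.58 in siCXCR4 (log2 -0.51, SE 0.125, adjusted p = 0.457). Zfp384 stood slightly higher in siCXCR4, at 10.3 and 10.6 against 10.6, 10.7 and 11.8 FPKM (log2 0.07, adjusted p = 0.725). However, 4930557K07Rik shared only 14 exon bases with Zfp384, and 90 with other genes on that strand only. It also overlapped Ing4, with overlapping groups, and Acrbp, which was lower in every siCXCR4 library. Acrbp had 0.858 and 0.991 FPKM in siNC and 0.701, 0.472 and 0.733 in siCXCR4. Gm16161, inside the phosphoinositide phosphatase gene Mtmr14, had 3.44 and 2.45 FPKM in siNC and 2.06, 1.60 and 1.80 in siCXCR4 (log2 -0.48, SE 0.126, adjusted p = 0.486). Neither transcript reached an unadjusted p under 0.05 by edgeR (0.0586 and 0.0945), and both rested on 9 to 25 reads per library.

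Gm15777, head to head with the coenzyme Q synthesis gene Coq2, had 2.17 and 2.20 FPKM in siNC and 0.996, 1.53 and 1.55 in siCXCR4 (log2 -0.44, SE 0.121, adjusted p = 0.488). Gm26740 spanned introns of Raet1e, a gene of the RAE-1 ligands of the natural killer cell receptor NKG2D, and had 2.66 and 1.85 FPKM in siNC and 1.17, 1.20 and 1.64 in siCXCR4 (log2 -0.47, SE 0.138, adjusted p = 0.494). Coq2 and Raet1e overlapped between the groups. The RAE-1 genes are near-identical copies, so the level of Raet1e is uncertain.

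For 6530409C15Rik, tail to tail with the zinc finger gene Zfp800, both genes of the pair were lower in siCXCR4. The antisense transcript had 2.79 and 2.77 FPKM in siNC and 2.12, 1.69 and 2.36 in siCXCR4 (log2 -0.31, SE 0.103, adjusted p = 0.504). Zfp800 had 19.7 and 19.8 FPKM in siNC and 17.3, 18.3 and 18.0 in siCXCR4 (log2 -0.14, SE 0.0492, adjusted p = 0.507). Neither gene of this pair, nor of Gm16015 and Cd38, passed the adjusted threshold.

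In the other direction the 3 members under an unadjusted p of 0.05 were Gm15133, Gm15265 and Gm17111. Gm15133, head to head with Trim12a of the TRIM family of ubiquitin ligases, had 1.40 and 1.32 FPKM in siNC and 2.50, 2.08 and 1.92 in siCXCR4, on 22 to 46 reads (log2 0.42, SE 0.0957, adjusted p = 0.457). Trim12a lay in the other direction, at 10.1 and 10.2 FPKM in siNC and 9.99, 8.79 and 9.55 in siCXCR4 (log2 -0.10, adjusted p = 0.661), and has close copies in the same cluster, so its level is uncertain. The groups overlapped on neither strand.

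Gm15265, whose stretch opposite the coding exons of Pi4kb is printed above, had 0.838 and 0.781 FPKM in siNC and 1.60, 1.11 and 1.45 in siCXCR4 (log2 0.39, SE 0.108, adjusted p = 0.488). Pi4kb, a lipid kinase of the Golgi, had 11.0 and 11.5 FPKM in siNC and 10.6, 10.6 and 10.4 in siCXCR4, again without overlap and in the other direction (log2 -0.08, adjusted p = 0.626). Gm17111, inside the dynein heavy chain gene Dync1h1, had 0.882 and 0.494 FPKM in siNC and 1.01, 1.26 and 1.78 in siCXCR4 (log2 0.47, SE 0.166, adjusted p = 0.509). It rested on 4 to 14 reads per library, and by edgeR its unadjusted p was 0.108.

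The remaining higher members did not reach an unadjusted p under 0.05. Dnmt3aos, in the gene of the DNA methyltransferase Dnmt3a, had 1.24 and 1.61 FPKM in siNC and 1.66, 2.31 and 1.73 in siCXCR4 (log2 0.25, SE 0.122, adjusted p = 0.564), narrowly without overlap, while Dnmt3a stood between 11.9 and 12.3 FPKM in every library. D930019O06Rik had 1.34 and 1.23 FPKM in siNC and 1.44, 1.65 and 1.41 in siCXCR4 (log2 0.13, adjusted p = 0.647). Its head-to-head partner Creg2 lay higher as well, at 13.2 and 13.1 FPKM against 14.9, 13.6 and 15.4 (log2 0.14, adjusted p = 0.549). Gm37468, inside the signal-regulatory protein gene Sirpb1b, and Gm37768, across the end of Acbd3, which encodes a Golgi protein, overlapped between the groups, as did A530040E14Rik.

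**Figure D4:**
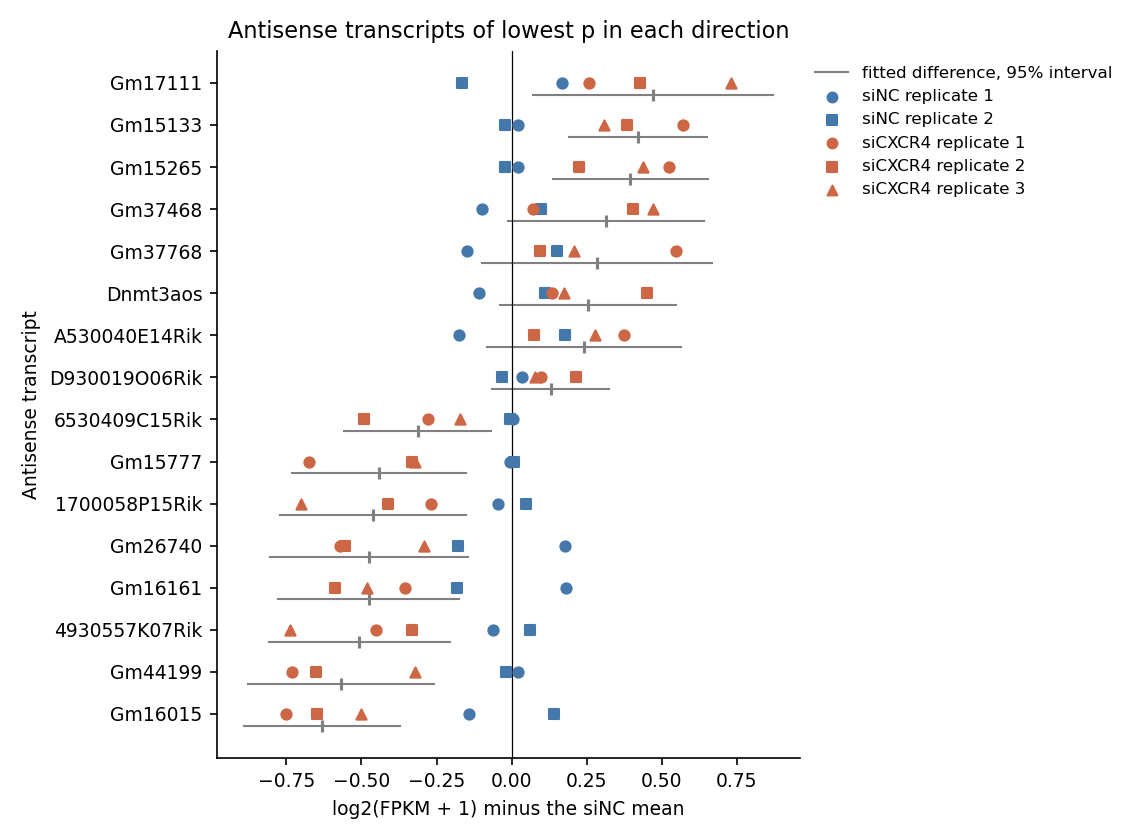
log2(FPKM + 1) minus the siNC mean (horizontal axis) in each library for the 8 antisense transcripts of lowest limma p in each direction, with the fitted siCXCR4 minus siNC difference and its 95% interval in grey. The 8 lower transcripts separate the groups in every case, while Gm37468, Gm37768 and A530040E14Rik among the higher ones overlap. Choosing by lowest p favours such separation, and 9.92% of all genes separate with siCXCR4 lower.

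The start of a transcript could be matched to a RefSeq promoter window (assembly GRCm38.p6, 250 bases before to 50 after the start) within 50 bases for 20 members, of 41 in that table. Windows were searched on both strands for 5 motifs. The AP-1 motif TGANTCA occurred in 2 of the 20 windows and in 7.81% of all 32851 windows, a similar share. These 2 windows, of Dnmt3aos and Gm15133, are printed as examples from members described above, with the motif in capitals and as the 250 bases before the start: chr12:3862245-3862494 on the minus strand and chr7:104314781-104315030 on the plus strand.
Dnmt3aos: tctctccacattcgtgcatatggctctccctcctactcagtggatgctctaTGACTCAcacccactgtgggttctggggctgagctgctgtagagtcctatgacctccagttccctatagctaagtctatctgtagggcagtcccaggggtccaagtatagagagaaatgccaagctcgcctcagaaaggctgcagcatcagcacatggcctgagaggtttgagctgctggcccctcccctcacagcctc
Gm15133: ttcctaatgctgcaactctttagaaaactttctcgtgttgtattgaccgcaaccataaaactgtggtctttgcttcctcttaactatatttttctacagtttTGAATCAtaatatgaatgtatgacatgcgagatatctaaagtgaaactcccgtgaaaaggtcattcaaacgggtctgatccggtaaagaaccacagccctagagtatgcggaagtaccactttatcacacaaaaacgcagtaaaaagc
An interferon response motif, GAAA repeated after 2 bases, occurred in 2 windows (3.44% of all), the PU.1 motif GAGGAAGT in 1 (3.20%), the TATA motif TATAAA in 1, that of Airn (13.6%), and the SP/KLF motif GGGCGG in 8 (35.7%). In 0 of the 20 windows did 2 of these motifs overlap. A match describes letters only and shows no binding.

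The sense genes had no member past the adjusted threshold either. Of 85 main partners, 71 had a mean of at least 1 FPKM. Limma called 0 of them, edgeR 0 of 79 and DESeq2 0 of 85 at an adjusted p under 0.05. Without adjustment limma gave 6 with p under 0.05, with 3 higher and 3 lower, which is 4.23% each way beside 5.8% and 3.54% of all genes, and edgeR gave 6 and DESeq2 5. Partners below 0 numbered 32 of 71 by limma, with a median log2 difference of 0.00, but 47 of 79 by edgeR and 46 of 85 by DESeq2. The count at that unadjusted p ran from 1 to 12 over the alternatives: it was 1 by limma without siNC replicate 1 or without siCXCR4 replicate 1, 3 without siNC replicate 2, and 12 without siCXCR4 replicate 2. The lower 3 were Pilrb1, a paired immunoglobulin-like receptor at 17.4 and 15.2 FPKM, Zfp800 and Cd38. The higher 3 were Oasl1, an interferon-induced gene at 403 and 454 FPKM, Pfkfb3, a glycolytic regulator at 160.1 and 185 FPKM, and Gm11084, which rested on 0 to 3 reads per library.

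Set against each other, the differences of the strands of a pair showed little relation (r = -0.06, rho = -0.08 across 72 pairs that share the same 5 libraries). Of these pairs 13 were higher on both strands, 16 lower on both and 43 opposite in sign by limma. Many partner differences lay close to 0, and the opposite count was 35 of 72 with reads in listed genes as denominator and 41 of 78 by edgeR. The antisense-to-sense ratio of log2(FPKM + 1) had a median difference of -0.04 over 86 pairs. Its largest decrease, of -1.24 for Sp3os over Gm11084, rests on the 0 to 3 reads of Gm11084; the transcript also overlapped Sp3, a transcription factor gene with a mean of 10.2 FPKM. Sp3os alone had a log2 difference of -0.24 (1.47 and 1.48 against 1.29, 0.810 and 1.23 FPKM). The pairs listed here are those whose groups did not overlap. That leaves out pairs such as Gm45820 over Tom1 at -0.65 and Gm36551 over Pilrb1 at 0.37. Other decreases were -0.58 for 4930557K07Rik over Zfp384, -0.49 for Gm16015 over Cd38, -0.47 for 1700058P15Rik over Vasp, -0.47 for Gm16161 over Mtmr14 and -0.46 for Gm44199 over Brk1. The largest increases were 0.54 for Gm17111 over Dync1h1, 0.52 for Gm15133 over Trim12a and 0.48 for Gm15265 over Pi4kb. Smaller ones were 0.30 for Gm45014 over Tm6sf1, 0.25 for Dnmt3aos over Dnmt3a and 0.18 for Gm26982 over Ghrl, the ghrelin gene. For single pairs the exact permutation test cannot go below 0.1.

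**Figure D5:**
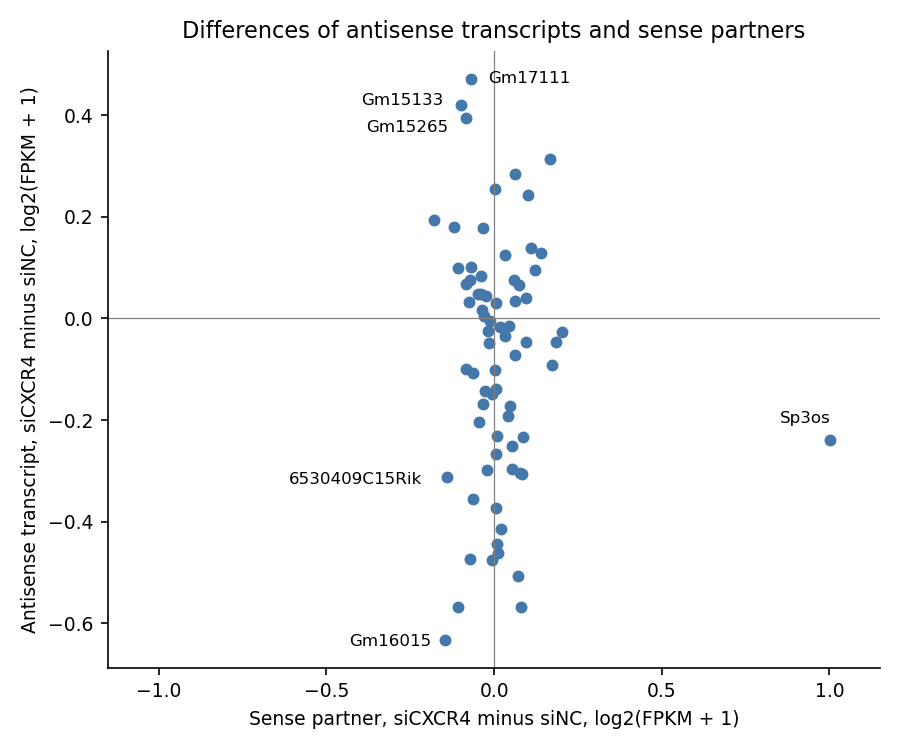
siCXCR4 minus siNC difference in log2(FPKM + 1) of the antisense transcript (vertical axis) against that of its main sense partner (horizontal axis) for 72 pairs with a tested partner. Apart from Sp3os, whose partner Gm11084 rests on 0 to 3 reads, partners lie in a narrow band around 0. The antisense transcripts spread from -0.63 to 0.47. Their differences were also less precise by limma. The unadjusted interval around a difference reached 0.31 to either side for the median of 97 members and 0.15 for the median of 71 main partners. Whether the spreads differ beyond that precision was not tested.

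Genes that degrade or sense such RNAs were looked at as a list, chosen with earlier results of these data known. Of 18 tested genes of the nuclear exosome and its adaptors, limma, edgeR and DESeq2 each called 0 at an adjusted p under 0.05. Limma put 0 of the 18 higher and 2 lower at p under 0.05 without adjustment, beside 5.8% and 3.54% of all genes. Mphosph6, an exosome cofactor, stood at 2.65 and 2.38 FPKM in siNC and 1.78, 2.02 and 1.43 in siCXCR4 (log2 -0.36, adjusted p = 0.494). Zfc3h1, which links poly(A) RNAs to the exosome, stood at 6.79 and 6.55 against 5.61, 6.07 and 6.10 FPKM (log2 -0.15, adjusted p = 0.526). Both were lower in every siCXCR4 library. Exosc2, a subunit of the exosome core, lay higher in each, at 3.26 and 3.93 against 4.20, 4.48 and 4.05 FPKM (log2 0.19, adjusted p = 0.538), and Exosc6 had 0 reads. Of 12 tested genes that bind, edit or sense double-stranded RNA, 0 were called by any of these tools and 0 were under an unadjusted p of 0.05 by limma, the lowest being Ddx58, the RNA sensor RIG-I, at 79.2 and 82.4 against 92.4, 83.2 and 92.1 FPKM (log2 0.14, adjusted p = 0.549). Over the 30 genes together 13 lay above 0, with a median of 0.00.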

How the data were processed

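Total RNA of LPS-treated macrophages was sequenced, and 6 tables of 54532 genes were deposited, 1 per sample. In 5 tables the deposited values are FPKM (FPKM and RPKM cannot be told apart), a unit inferred from the numbers: multiplied by gene length, 100% of them fall within 0.05 of a whole number of reads. The deposited values of siNC replicate 3 are whole counts that repeat replicate 2. Aligner, counting tool and strand setting: not given in the sources used here. Per the submitters' processing notes the build was mm9. Yet 98.3% of shared genes (53548 of 54495) sat at their GENCODE M21 (GRCm38) position, so positions are in GRCm38 coordinates; all 97 members were in it, 95 at the same position and 95 with the same exon length.

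The comparison used limma 3.58.1 in R 4.3.3 with trend and robust estimates on log2(FPKM + 1), two-sided, for 9943 genes averaging 1 FPKM or more, Benjamini-Hochberg adjusted over all of them. Fold changes on that scale understate those of low genes. Whole reads worked back from FPKM were tested with edgeR 4.0.16 (TMM, robust quasi-likelihood; 17 of 12794 genes called) and DESeq2 1.42.0 (28 of 23311) as alternatives. Scripts were tested on simulated data. Ranges of reads show counting error only: lacking molecular identifiers, reads are not independent molecules. Replicate numbers are shared by both groups, and only 2 pairs exist, with correlations of -0.04 and -0.11 in their deviations. The deviations of the 2 siNC libraries mirror each other, so these values can neither show nor exclude pairing. The numbers were not taken to pair samples.

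Sense partners are protein-coding genes on the other strand whose span overlaps. Named were the 10 most abundant members, the 8 of lowest p in each direction, any called by a tool, those with opposite-strand symbols, the 3 on each side of the minimum, the 6 of highest ratio to the partner and the 6 largest ratio differences in each direction without overlap, with up to 4 surveillance genes; others named, such as Airn, Gm20234, Pilrb1, Oasl1 and Pfkfb3, were chosen after their values were seen. The members, lists and tests were chosen with earlier results of these data known. Alternatives were other pseudocounts (0.1, 0.01), no filter, a minimum of 5 FPKM, quantile and median scaling, a replicate block, the copy as siNC replicate 3 and each library left out.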

Additional observations from a re-analysis of the deposited data

How the results depend on the processing

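Precision was limited by 2 siNC libraries and by depth, with 30 of 97 members never reaching 30 reads in a library. The count of members past the adjusted threshold was 0 under every limma and DESeq2 alternative and ranged from 0 to 1 by edgeR with each library left out, the 1 being 1700071M16Rik without siCXCR4 replicate 2. Partners ranged from 0 to 2 likewise (Pfkfb3 and Bcl3, same library). Of all genes, limma called 0, edgeR 17, DESeq2 28 and limma with the copy as siNC replicate 3 called 6; leaving out a library gave 0 to 1 by limma and 0 to 312 by edgeR (5 and 20 without siNC replicates 1 and 2, and 0, 312 and 3 without siCXCR4 replicates 1 to 3). With the replicate block edgeR called 81 genes and limma 0, and the log2 difference of Cxcr4, -0.33 with an adjusted p of 0.0223 by edgeR, passed the threshold. Whether the replicate numbers pair samples could not be decided. In the block siCXCR4 replicate 3 has no siNC partner. The limma block value of Cxcr4, -0.304, was the same as that without siCXCR4 replicate 3. Without siCXCR4 replicate 2 Cxcr4 also passed by edgeR (-0.40, adjusted p = 0.00104), with -0.40 to -0.27 over the libraries left out and adjusted p from 0.00104 to 0.863 over all alternatives. Members at an unadjusted p under 0.05 numbered 3 to 20, and partners 1 to 12. The median antisense-to-sense difference stayed between -0.08 and -0.01. None of the 8 members of lowest p in each direction changed sign under the alternatives run for single members, which leave out the edgeR block and edgeR without each library. The edgeR block, edgeR with libraries left out, unshared exon length and reads in listed genes as denominator were chosen after seeing the data. The cause of these shifts was not tested.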
